A study of Rattus norvegicus with 21 samples.

Results

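This account compares the cerebral cortex of rats 48 h after repeated hypobaric hypoxia with the cortex of other rats 24 h after it, gene by gene. It rests on 6 of the 21 libraries of the series, 3 at each time, chosen by their labels and not by any measured value. Hypobaric hypoxia is a lack of oxygen under reduced air pressure, as at high altitude, produced here in a chamber. All rats were male, wild type and of the SD strain, and were 4 weeks old before 2 weeks of acclimation. Rats of both exposed groups went through 6 cycles, 3 days apart, each with a climb to a simulated 28000 ft and a stay of 5 min there. By their labels they differ in the time from the last cycle to tissue collection, 24 h or 48 h. Control rats (4 cortex libraries) stayed at normal oxygen, and 1 further library of the 24 h time, titled hippocampus and labelled cortex, was left out. The labels do not tie a replicate number to the same rat across groups, and each rat was killed at 1 time, so the 2 times are different animals and not repeated measures.

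When oxygen falls, cells stabilise hypoxia-inducible transcription factors, which raise genes of glucose uptake, glycolysis and vessel growth, and the factors are broken down again once oxygen returns. In cortex, neurons with their high energy demand, astrocytes, microglia and vessel cells all respond to low oxygen. A comparison of 2 times after the last exposure asks which transcripts differ between groups of rats that are back at normal oxygen. It cannot show a change within an animal. Anything else that differed between the collections of the 2 groups cannot be told apart from time. The deposited table lists genes by Ensembl rat ID alone, and 0 of these IDs could be paired with a symbol in the reference table used here. Genes are therefore described by their numbers, levels and libraries and by 4 IDs, and no gene of a pathway or cell type could be looked at. For the same reason the labelled tissue could not be checked against its defining genes. In a piece of tissue, fewer cells of a type and less RNA per cell cannot be told apart.

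The 6 libraries held 12244465 to 18005603 reads in genes and reads in 18502 to 19051 of 30560 listed genes. Values are normalized read counts, that is, reads of a gene divided by 1 size factor per library. Tests covered the 14723 genes whose mean over these 6 libraries was 10 or more.

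Among the exposed cortex libraries 24 h replicate 3 stood apart, and it enters the comparisons of the times in cortex below unless it is named as left out. The distance between 2 libraries was taken as the median absolute log2 difference over the 14723 genes. The other 24 h libraries, replicates 2 and 4, lay 0.17 apart, the closest pair among the cortex libraries. Replicate 3 lay 0.42 and 0.43 from them, farther than any pair within the 48 h group (0.18 to 0.28). It lay 0.46 to 0.49 from the 48 h libraries, whereas 24 h replicates 2 and 4 lay only 0.23 to 0.29 from them. At 2572 genes (17.5%) replicate 3 differed at least 2-fold from the mean of the other 24 h libraries, 843 higher and 1729 lower. For the other 5 exposed libraries this number was 398 to 911. The nearest cortex library to 24 h replicate 3 was control replicate 1, and controls were also nearest to 48 h replicates 2 and 3. Control replicate 3, which enters the fit through the spread alone, lay 0.41 to 0.54 from the other cortex libraries.

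**Figure D1:**
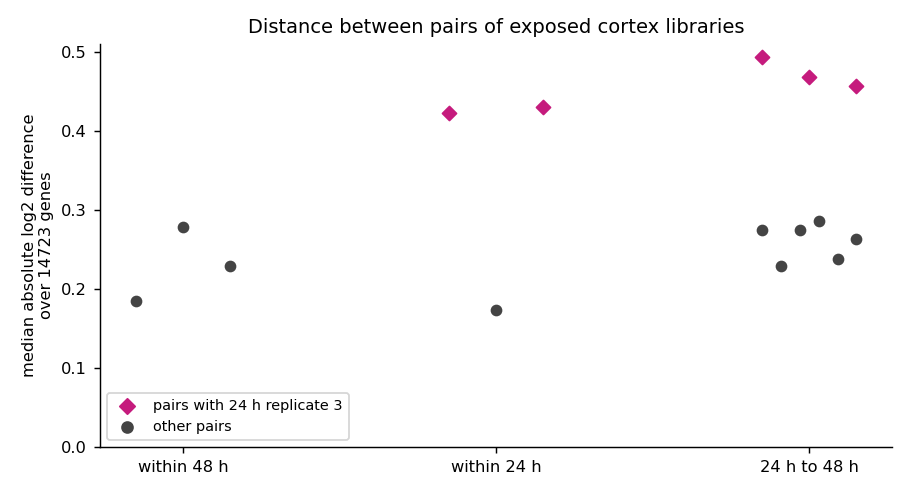
Each point is a pair of exposed cortex libraries, and the vertical axis gives the median absolute log2 difference over 14723 genes. Pairs with 24 h replicate 3 (diamonds) lie at 0.42 to 0.49, and all other pairs, within a time or between the times, lie at 0.17 to 0.29.

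The 10 most abundant genes of the series took 27.4% of the reads of 24 h replicate 3. They took 15% and 19.1% in 24 h replicates 2 and 4 and 13.6% to 16.2% in the 48 h libraries. All 10 of these genes had a lower mean log2 value at 48 h (log2 change -1.26 to -0.22), against 6926 of the 14723 genes tested. Of the 10, 1 had an unadjusted p under 0.05, against 11.4% of all genes. Their median log2 change was -0.48 with replicate 3 and -0.15 without it, when 8 of 10 were lower and 0 had such a p. Control cortex lay at 13.4% to 17.1%, so 24 h replicate 3 was above all controls and 24 h replicate 4 was too.

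The time since the last exposure held 24.8% of the variance among the 6 libraries on the log2 scale, with 1 of 5 degrees of freedom (20%). Without 24 h replicate 3 it held 36.3%, with 1 of 4 (25%). On the first principal component, with 50.5% of the variance, 24 h replicate 3 lay at 85.3 and the other 5 libraries between -25.3 and -4.93. The second component held 20.5%. On it 24 h replicates 2 and 4 lay at 30.1 and 20 and 48 h replicates 1, 2 and 3 at 2.01, -11 and -46.6. The 2 times thus did not overlap on the second component, except that 24 h replicate 3, at 5.46, lay close to 48 h replicate 1. The median SD of a gene within a time was 0.29 at 24 h and 0.20 at 48 h (log2 scale, n = 3 each), and 0.31 in control cortex (n = 4).

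With all 10 cortex libraries weighted equally, no gene passed the threshold between the times in limma or edgeR. DESeq2, limma with library weights and limma without 2 libraries did call genes, as given further on. limma called 0 of 14723 genes (0%) at an adjusted p under 0.05, with a smallest adjusted p of 0.117, and edgeR called 0 (0%) with a smallest adjusted p of 0.14. At an unadjusted p under 0.05 limma held 1673 genes (11.4%), against 736 at 5% of genes. These were 813 higher (5.52%) and 860 lower (5.84%) at 48 h. edgeR held 1651 (11.2%), split as 600 higher (4.08%) and 1051 lower (7.14%), so that more of them were lower than in limma. The split in limma also moved with the scaling and the libraries, to 717 higher and 954 lower with TMM scaling, 685 and 999 with quantile normalization and 936 and 876 with the 6 exposed libraries alone. The quartiles of all log2 changes were -0.21 and 0.27, with a median of 0.02. The median change was 0.65 among the genes higher at that p and -0.64 among those lower.

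Values of the 2 times did not overlap for 3336 genes (22.7%), 1849 of them higher (12.6%) and 1487 lower (10.1%) at 48 h. For a gene without a difference, 3 against 3 libraries fail to overlap in either direction with a probability of 0.1. Genes share the libraries, so the excess over this is no test. At 344 genes (2.34%) the times did not overlap and differed at least 2-fold, 186 higher (1.26%) and 158 lower (1.07%). A difference of at least 2-fold with or without overlap was seen at 557 genes (3.78%), 312 higher (2.12%) and 245 lower (1.66%). Precision was lowest for genes of low level. The 95% interval of a log2 change reached a median of 1.01 to either side for genes with a mean of 10 to 50, 0.63 for 50 to 200, 0.45 for 200 to 1000 and again for 1000 to 5000, and 0.56 for the 290 genes at 5000 or more. Of the genes with a mean of 10 to 50, 8.84% differed at least 2-fold and 5.97% had an unadjusted p under 0.05. For a mean of 200 to 1000 these shares were 2.15% and 12.7%, for 1000 to 5000 2.05% and 15%, and for 5000 or more 3.1% and 7.59%. Over all genes the interval reached 0.57 to either side and lay within a 2-fold change in both directions for 59.7% of genes.

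**Figure D2:**
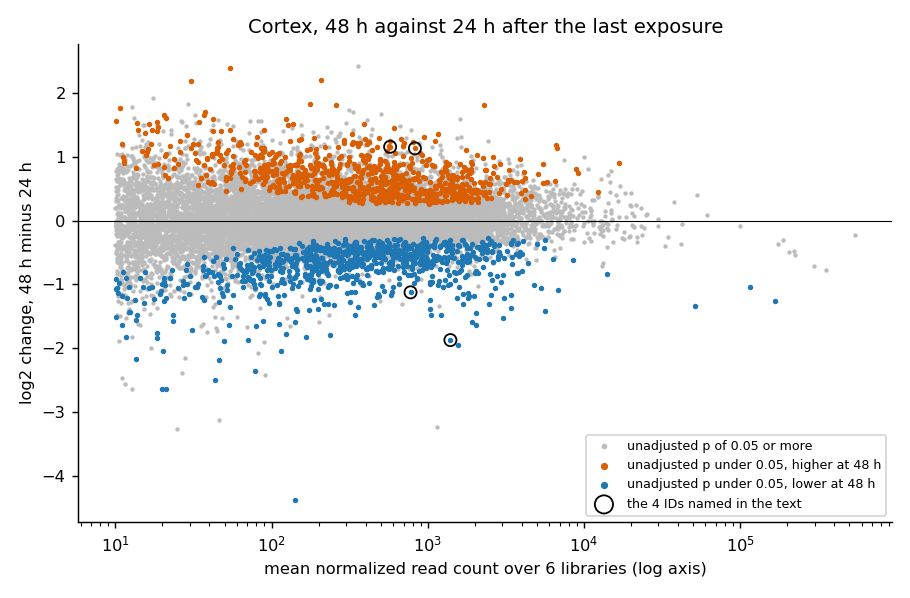
Each point is 1 of 14723 genes, with its mean normalized read count over the 6 exposed cortex libraries (log axis) against its log2 change, 48 h minus 24 h. Coloured points are the 813 genes higher and 860 lower at an unadjusted p under 0.05, rings mark the 4 IDs named in the text, and no gene passed an adjusted p of 0.05 in limma.

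The number of genes at an unadjusted p under 0.05 moved in both directions with the libraries in the fit. 24 h replicate 3 was the highest of the 24 h libraries at 714 of the 860 genes lower at 48 h and the lowest at 646 of the 813 genes higher. Over all genes replicate 3 also lay farthest from the other 24 h libraries. How often it was highest or lowest over all genes was not counted. Without 24 h replicate 3, 994 genes had such a p, 458 higher and 536 lower, and 745 of the 1673 kept both the p and the direction. All 1673 kept the direction, and both fits share the other 9 cortex libraries. The median change moved from 0.65 to 0.46 for the genes higher and from -0.64 to -0.48 for those lower. Leaving out 48 h replicate 1 gave 972 genes and leaving out 48 h replicate 2 gave 1001. It was 1394 to 2391 without any other cortex library, the highest without control replicate 3. With the 6 exposed libraries alone it was 1812, and with 24 h replicate 3 also left out of these it was 2231. limma called 0 genes in each of these fits. With control replicate 3 left out besides 24 h replicate 3, 2106 genes had such a p.

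**Figure D3:**
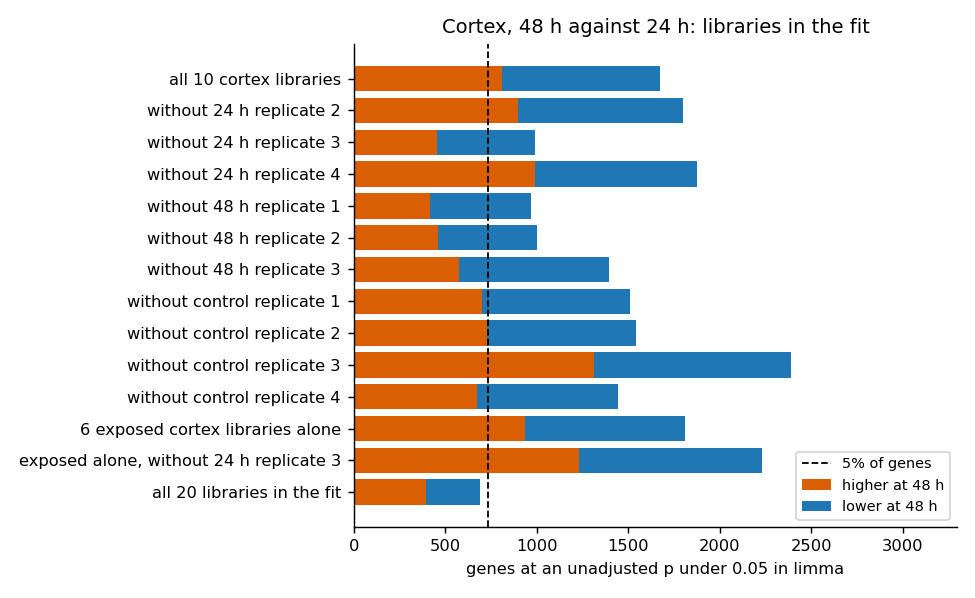
Bars give how many genes limma held at an unadjusted p under 0.05 for cortex at 48 h against 24 h, split by direction, for each set of libraries in the fit. The dashed line marks 5% of the 14723 genes, and all sets but all 20 libraries of both tissues (690) lie above it, between 972 and 2391.

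DESeq2, which models read counts directly, called 155 of the 12930 genes it gave an adjusted p (1.2%). Of these 26 were higher (0.201%) and 129 were lower (0.998%) at 48 h. In limma, on the same reads, all 155 were at an unadjusted p under 0.05, and their values did not overlap between the times. Their median limma log2 change was 0.68 for the 26 and -1.04 for the 129. At 116 of the 129 lower genes 24 h replicate 3 was the highest of the 24 h libraries, a count not made over all genes. Without 24 h replicate 3 DESeq2 called 33 genes, 10 higher and 23 lower, of which 30 were among the 155. Leaving out 48 h replicate 1, 2 or 3 gave 19, 16 or 106 calls, and leaving out 24 h replicate 2 or 4 gave 236 or 125. Lower genes outnumbered higher ones in all 6 of these fits. In limma without 24 h replicate 3, 154 of the 155 genes kept an unadjusted p under 0.05 and the direction. Their median limma log2 change was then 0.59 for the 26 and -0.78 for the 129. The 155 were picked with that library included, and the other libraries are shared. limma with estimated library weights called 1358 genes (9.22%), 623 higher (4.23%) and 735 lower (4.99%). The weight was 5.88 for 48 h replicate 2, against 0.966 and 0.683 for 48 h replicates 1 and 3. It was 2.65, 0.186 and 1.67 for 24 h replicates 2, 3 and 4 and lowest, at 0.171, for control replicate 3. The weighted 48 h values thus rested mostly on replicate 2, and the weights were estimated from the same values. At 1078 of the 1358 genes the times did not overlap, against 22.7% of all genes. Of these 1358 genes, 985 had an unadjusted p under 0.05 in the same direction without weights. Without 24 h replicate 3 and control replicate 3, limma with equal weights called 5 genes, 1 higher and 4 lower. Both libraries stood apart in these same values, so the 5 calls are no independent support.

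The 4 named IDs had the smallest limma p in each direction among genes whose mean was 50 or more and whose values did not overlap, 1692 candidates higher and 1281 lower. They were thus picked for their separation, which is no further support, and their genomic position and annotation were not analysed here. ENSRNOG00000011817 had the smallest p of all genes and was lower at 48 h. Its normalized read counts were 1686, 2869 and 2053 in 24 h replicates 2, 3 and 4 and 497, 586 and 691 in 48 h replicates 1, 2 and 3. Every 48 h library lay below every control library (1046 to 1545), and every 24 h library lay above them. The mean went from 2203 ± 606 (SD, n = 3) at 24 h to 591 ± 97.3 (SD, n = 3) at 48 h, a log2 change of -1.87 (SE 0.22, limma adjusted p = 0.117). Throughout, above and below, log2 changes are of values with 1 added, which understates changes of low genes. DESeq2 gave it an adjusted p of 4.12e-10 and edgeR one of 0.14.

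ENSRNOG00000051624 was also lower at 48 h. It had 966, 1253 and 976 in 24 h replicates 2, 3 and 4 and 501, 410 and 553 in 48 h replicates 1, 2 and 3. The controls, at 585 to 817, lay between both times with no overlap. Its means were 1065 ± 163 (SD, n = 3) and 488 ± 72.8 (SD, n = 3), a log2 change of -1.12 (SE 0.18, limma adjusted p = 0.359). DESeq2 gave it an adjusted p of 6.1e-05.

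ENSRNOG00000001793 was higher at 48 h. It had 372, 307 and 380 in 24 h replicates 2, 3 and 4 and 977, 648 and 763 in 48 h replicates 1, 2 and 3. The controls, at 434 to 605, again lay between both times with no overlap. Its means were 353 ± 39.6 (SD, n = 3) and 796 ± 167 (SD, n = 3), a log2 change of 1.16 (SE 0.19, limma adjusted p = 0.359). DESeq2 gave it an adjusted p of 0.000166.

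ENSRNOG00000060407 was higher at 48 h too. It had 588, 388 and 593 in 24 h replicates 2, 3 and 4 and 1053, 1035 and 1310 in 48 h replicates 1, 2 and 3. Unlike the other three, its 48 h values overlapped the controls (814 to 1308), and only its 24 h values lay apart from them. Its means were 523 ± 117 (SD, n = 3) and 1133 ± 154 (SD, n = 3), a log2 change of 1.13 (SE 0.23, limma adjusted p = 0.359). DESeq2 gave it an adjusted p of 0.00539. Both times are read against the same 4 control libraries, so the control levels are a description. Without 24 h replicate 3 the log2 changes of the 4 IDs, in the order given, were -1.66, -1.002, 1.06 and 0.93.

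**Figure D4:**
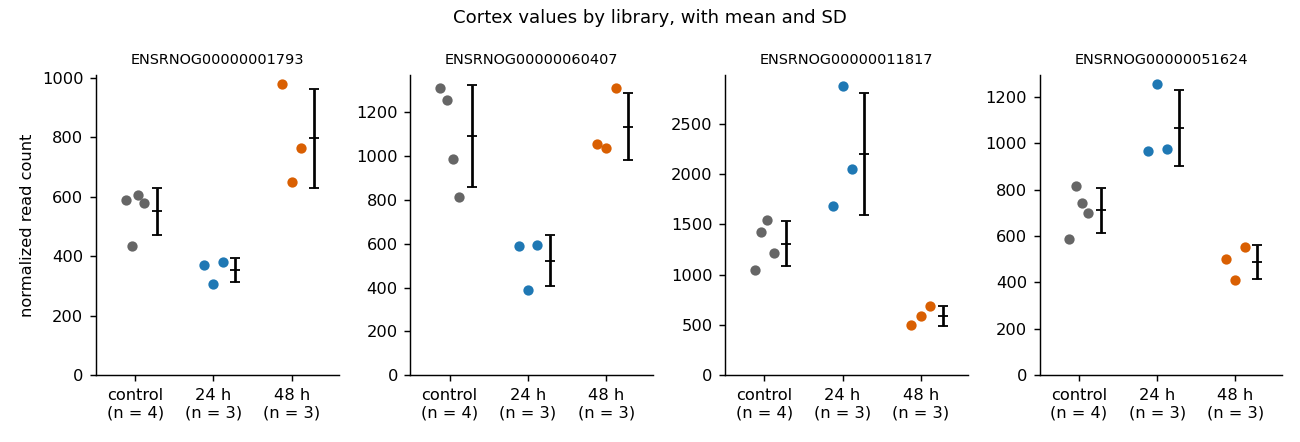
Normalized read counts of the 4 named IDs in each cortex library of the control (n = 4), 24 h (n = 3) and 48 h (n = 3) groups, with the mean and SD beside the points and each vertical axis starting at 0. The 24 h and 48 h points do not overlap in any panel, which is how the IDs were chosen, and the controls lie between them except for ENSRNOG00000060407.

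The same pair of times was compared in hippocampus, from 3 libraries each. All 20 libraries with a group were put in 1 limma fit. In hippocampus 40 of 14723 genes (0.272%) had an unadjusted p under 0.05 between 48 h and 24 h. In cortex 690 had one, against 1673 with cortex libraries alone. In the fit of all 20 libraries 0 genes (0%) passed the adjusted threshold in either tissue. Evenly spread p-values would put 736 genes under 0.05, so the 40 do not show that hippocampus changed little. Hippocampus control replicate 2, at 0.300 on the scale between the tissues given below, also enters the spread of this fit. In control replicate 1 there, 182 reads of ENSRNOG00000001793 gave 785 normalized counts, against 503 and 455 in replicate 2. Their part in these numbers was not tested. Over the 14723 genes the log2 changes of both tissues correlated negatively (r = -0.30, rho = -0.38). This is a description across genes, which are not replicates, and the genes share the libraries and their depth. Both changes had the same sign at 35% of all genes and at 20.2% of the 1673 genes at an unadjusted p under 0.05 in cortex. Without cortex 24 h replicate 3 r was -0.14. With hippocampus 24 h replicate 2 left out as well, a library at 0.461 on the scale between the tissues given below, r was -0.08, rho was -0.15 and 44.3% of genes had the same sign. Among the 10876 genes within 1.5-fold of each other in the control tissues, r was -0.29 with all libraries and -0.09 without both.

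The difference between the tissues did not pass the test for any gene in limma or edgeR. limma's interaction term, which compares the change from 24 h to 48 h in cortex with that in hippocampus, called 0 of 14723 genes (0%), with a smallest adjusted p of 1. At an unadjusted p under 0.05 it held 513 genes (3.48%), fewer than 5% of genes, and the median 95% interval of the difference reached 1.11 to either side. edgeR also called 0, with 541 genes (3.67%) at an unadjusted p under 0.05. The same replicate numbers occur in both tissues at each time, and the labels do not say whether they name the same rats. Both fits treated all libraries as independent and used no such pairing. The 4 named IDs were chosen on the cortex values that enter the interaction term, so the term is no test of them. Their hippocampus log2 changes were 0.11 for ENSRNOG00000011817, 0.31 for ENSRNOG00000051624, -0.38 for ENSRNOG00000001793 and -0.54 for ENSRNOG00000060407. The hippocampus values of ENSRNOG00000011817 overlapped, with means of 943 ± 370 (SD, n = 3) at 24 h and of 1116 ± 707 (SD, n = 3) at 48 h.

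**Figure D5:**
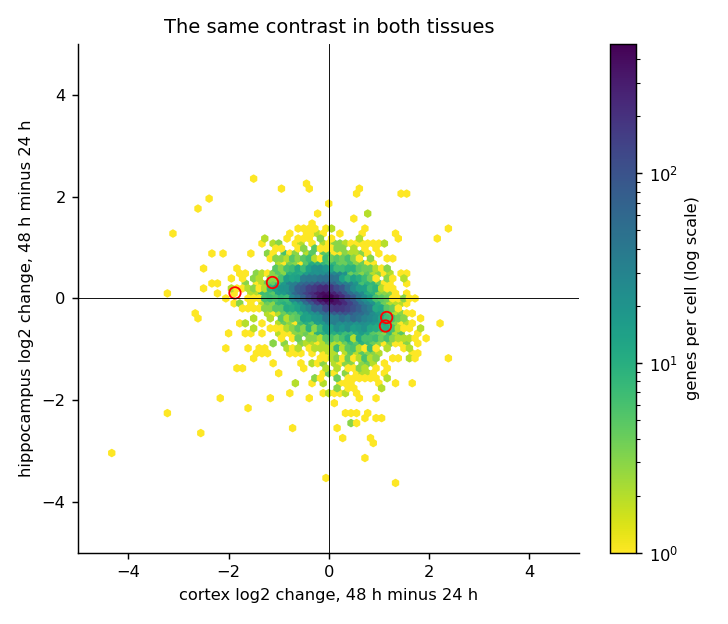
Log2 change, 48 h minus 24 h, in cortex (horizontal) against hippocampus (vertical) for 14723 genes, with the number of genes per cell as colour on a log scale and the 4 named IDs as red rings. The cloud tilts from upper left to lower right (r = -0.30), and the rings lie far from 0 in cortex and nearer to 0 in hippocampus.

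Each library was also placed on a scale between the tissues. The scale runs from 0 at the cortex median to 1 at the hippocampus median over genes at least 4-fold apart and at 100 or more in the higher tissue, chosen without the library itself. 24 h replicate 3 lay at 0.265, and 24 h replicates 2 and 4 at 0.0557 and -0.0101. The 48 h libraries lay at 0.108, -0.0531 and -0.102 for replicates 1, 2 and 3. The times differed by -0.119 (exact permutation test, two-sided, p = 0.4, n = 3 each, smallest possible p 0.1). The positions of the times overlapped. A position can differ between genes higher in hippocampus and genes higher in cortex. These were 0.386 and 0.202 for cortex 24 h replicate 3 and 0.118 and 0.604 for cortex control replicate 3. For hippocampus control replicate 2 they were 0.592 and 0.241, and for hippocampus 24 h replicate 2 0.719 and 0.354.

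Of 104 genes at least 4-fold higher in control hippocampus than control cortex and at 100 or more there, 72 were lower at 48 h in cortex. Over all 14723 genes tested, 6926 were lower and 7797 higher. The median log2 change of the 104 was -0.25, against 0.02 over all genes tested, and 0.12 without 24 h replicate 3. Of these 104 genes 7 (6.73%) had an unadjusted p under 0.05, against 11.4% of all genes. Of 193 genes at least 4-fold higher in control cortex, with the same minimum there, 148 were higher at 48 h. Their median was 0.31, and 0.20 without 24 h replicate 3. An unadjusted p under 0.05 was held by 8.81% of them, against 11.4% of all genes. Without 24 h replicate 3 the median of the hippocampus-high genes thus changed direction, and that of the cortex-high genes did not. No other library was left out for these lists. These lists were set on control libraries alone. Of all genes tested, 73.9% were within 1.5-fold of each other in the control tissues. This share was 72.2% for the 813 genes higher at an unadjusted p under 0.05 and 90.2% for the 860 lower. Genes at least 2-fold higher in control cortex made up 9.96% of the 813 and 0.581% of the 860, against 7.56% of all genes. Genes at least 2-fold higher in control hippocampus made up 1.85% and 3.02%, against 4.78% of all genes. The part of the tissue position in the contrast was not tested.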

How the data were processed

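RNA was extracted with TRIzol and made into stranded mRNA libraries, per the labels' protocols. The submitters' processing notes name fastp 0.20.0, HISAT2 2.1.0 and featureCounts 2.0.1. No source used here gives the genome build, the annotation or the strand setting. The authors deposited a signal per gene, in which a library's read counts are divided by its size factor. All values were whole multiples of the smallest value above 0 in their column (100% within 0.001), so reads could be recovered for edgeR and DESeq2. Such a size factor removes a shift shared by most genes.

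Values were tested as log2(value + 1) in limma 3.58.1 (R 4.3.3), with an intensity trend and 10 cortex libraries in 1 fit, two-sided, with Benjamini-Hochberg adjustment over 14723 genes. edgeR 4.0.16 and DESeq2 1.42.0 were alternatives. The rule for named genes needed symbols, and without them took 2 IDs in each direction. Gene lists could not be applied. The comparison, lists and alternatives were chosen with earlier results of these data known. The scripts were tested on simulated data. 0 table columns lacked a sample. Whether replicates came from separate extractions is not stated, so p-values measure the spread between these rats' libraries.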

Additional observations from a re-analysis of the deposited data

Results flagged for a closer look

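Of 8 measures over the 4 control cortex libraries, 2 had a value far from the rest, and chance alone gives about 1 in 20. ENSRNOG00000001793 had 433.7 normalized read counts in control replicate 2, below the other controls. Control replicate 3 had reads in 19688 genes, more than the other controls. Groups of 3 were not tested.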

How the results depend on the processing

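The number of genes called between 48 h and 24 h was 0 in limma with another pseudocount, filter, scaling or variance model, with the 6 exposed libraries alone, with all 20 libraries and without each library in turn. It was 5 without both doubted libraries (control replicate 3 and 24 h replicate 3, at 0.411 and 0.265 on the scale between the tissues), 1358 with library weights and 155 in DESeq2. The 0.411 of control replicate 3 joins unlike parts, 0.118 over genes higher in hippocampus and 0.604 over genes higher in cortex. The number at an unadjusted p under 0.05 was 690 with all 20 libraries and 4127 with library weights. Leaving out 1 library at a time gave 972 to 2391 in limma at that p. In DESeq2, where leaving out libraries was added after seeing the data, it gave 16 to 236 calls (33 and 125 without 24 h replicates 3 and 4, 19 and 106 without 48 h replicates 1 and 3), and 1104 genes at that p without 24 h replicate 3. In edgeR leaving out 24 h replicate 3, also added, gave 0 calls and 991 genes at that p. With the replicate number as a block, limma called 0 genes and 1315 had an unadjusted p under 0.05. Across the cortex groups the numbers name different rats, since each rat was killed at 1 time, and so do not pair them. Deviations of same-numbered cortex libraries from their group means correlated between -0.23 and 0.25. For differently numbered libraries this was -0.43 to 0.47, and such correlations cannot show whether rats are shared. The cause of the shifts in the gene counts was not tested. The interaction kept 0 calls in all 15 alternatives. The position difference ran from -0.181 to -0.0383 and kept its direction. The 4 IDs kept their direction in all alternatives. The 95% interval of a log2 change, a median of 0.57 to either side, limits what 3 libraries a time can show.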

Other observations

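Some genes had reads at 1 of the times only. Over the 3 libraries of a time, 1047 genes had reads at 24 h and none at 48 h, and 940 had reads at 48 h and none at 24 h. Nearly all of these rested on few reads. At least 10 reads at 1 time and none at the other were found for 15 genes at 24 h and 3 genes at 48 h, with at most 34 and 15 reads. These numbers cover counting only and were not tested.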
